A study of Homo sapiens with 16 samples.

Results

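Bone morphogenetic proteins (BMPs) are secreted ligands of the TGF-beta family. The set described here holds 9 genes of their pathway: the ligands BMP2, BMP4 and BMP6, the receptors BMPR1A and BMPR2, and the targets ID1, ID2, ID3 and ID4. They were picked by gene symbol from the 60649 genes of the count table, after matching its gene identifiers to the GENCODE annotation. All 9 were found. Of them, 8 passed the filter on low counts that left 19103 genes, and ID4 did not.

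RNA was sequenced from ASC52telo, an established line of adipose-derived mesenchymal stem cells (MSCs) immortalized with telomerase reverse transcriptase. Mitomycin C (MmC), which alkylates DNA, was given at 1.5 µg/mL for 18 h to make cells senescent. Growth differentiation factor 11 (GDF11), another ligand of the TGF-beta family, was then added or not at 10 ng/mL during 10 days of culture. The groups were "young" MSCs without either agent (MmC-/GDF11-), young MSCs with GDF11 (MmC-/GDF11+), senescent MSCs without GDF11 (MmC+/GDF11-) and senescent MSCs with GDF11 (MmC+/GDF11+), each with 4 biological replicates. "Young" means only that no MmC was given. All cells came from 1 immortalized line, and the 4 replicates of a group measure the spread between cultures of that line. The paper lists batch effects from technical issues among its limitations, so this spread can also hold technical differences. Which libraries were affected is not stated there.

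BMP ligands bind a complex of type I receptors such as BMPR1A and the type II receptor BMPR2. The receptors phosphorylate SMAD1, SMAD5 and SMAD9, which join SMAD4 and enter the nucleus. The ID genes are among the best known direct targets. ID proteins lack a DNA-binding region and hold back E proteins, which are transcription factors of the basic helix-loop-helix class. In MSCs the pathway is known for its part in bone and cartilage formation, and ID proteins are known for a role in keeping cells proliferating.

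To show the sequence in front of genes that did and did not change, the stretches before the starts of ID1, ID3 and BMP6 are given below. ID1 was lower and BMP6 was higher after MmC, and ID3 was not called in either MmC comparison. The bases come from RefSeq on GRCh38.p14 and run 5′ to 3′ on the strand of the gene. ID1 is chr20:31605039-31605282 on the plus strand, ID3 is chr1:23559502-23559751 on the minus strand and BMP6 is chr6:7725849-7726098 on the plus strand. Capitals mark matches, on either strand, to GGCGCC (the GC-rich box bound by SMAD1 and SMAD5), CAGAC (the SMAD box), CCAAT and TATAAA.
ID1: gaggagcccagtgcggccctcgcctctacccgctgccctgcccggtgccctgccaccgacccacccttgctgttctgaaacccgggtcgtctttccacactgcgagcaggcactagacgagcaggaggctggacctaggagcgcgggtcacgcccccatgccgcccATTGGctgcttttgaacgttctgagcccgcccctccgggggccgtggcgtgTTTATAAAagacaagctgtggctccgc
ID3: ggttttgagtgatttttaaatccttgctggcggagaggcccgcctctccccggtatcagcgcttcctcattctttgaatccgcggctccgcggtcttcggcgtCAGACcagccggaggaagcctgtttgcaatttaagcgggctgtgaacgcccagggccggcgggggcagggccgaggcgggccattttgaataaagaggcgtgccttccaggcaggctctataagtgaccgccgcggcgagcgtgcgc
BMP6: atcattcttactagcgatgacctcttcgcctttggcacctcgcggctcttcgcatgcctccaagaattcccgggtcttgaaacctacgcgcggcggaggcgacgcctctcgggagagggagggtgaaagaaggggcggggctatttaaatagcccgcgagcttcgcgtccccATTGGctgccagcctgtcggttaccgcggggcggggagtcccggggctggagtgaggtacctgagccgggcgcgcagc

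None of these 3 stretches held GGCGCC, and bases farther upstream were not searched. Among the 8 genes with a RefSeq entry, BMPR2 and 1 of the 3 starts of BMP4 had it, at -147 and -232. Positions are counted back from the RefSeq start. The ID1 stretch is printed with 244 of its 250 bases, without those inside its GENCODE gene. Its positions are therefore counted from beyond the printed end. ID1 had CCAAT at -84 and a pair of overlapping TATAAA matches, 1 on each strand, at -33 and -31. BMP6 had CCAAT at -78, and ID3 had CAGAC at -147. For comparison, of the 250 bases before 35116 RefSeq starts, 16.4% held GGCGCC, 38% held CAGAC, 32% held CCAAT and 10.7% held TATAAA. A match is a description of the letters only.

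Libraries held 71275337 to 144204979 counts each. Levels are given as CPM, the count of a gene relative to the total of its library, after TMM scaling, which adjusts these totals for composition. TMM factors were 0.916 and 0.92 in replicate 1 of the 2 MmC+ groups and 0.97 to 1.05 in the other 14 libraries. The 6 MSC markers (NT5E, THY1, ENG, CD44, ITGB1 and PDGFRB) summed to between 5090 and 6700 CPM in every library. The sum hides changes in both directions. After MmC without GDF11, 2 were called higher by edgeR at an adjusted p under 0.05 (NT5E and ITGB1) and 1 lower (PDGFRB). With GDF11, 3 were called higher (CD44 in addition) and 1 lower (PDGFRB). The 6 tested markers of blood, endothelium and epithelium (PTPRC, CD14, PECAM1, VWF, KDR and KRT18) summed to between 43.9 and 66.5 CPM in MmC- libraries and between 27.8 and 41.9 CPM in MmC+ libraries, and KRT18 had group means of 43.6 CPM in MmC-/GDF11- and 15.7 CPM in MmC+/GDF11-. EPCAM, an epithelial marker, had 20 counts over all 16 libraries and was not tested. Of the 6 tested markers of these other cells, 4 were called higher and 1 lower after MmC in each MmC comparison. Among all tested genes 45.3% were called without and 46.7% with GDF11. CD14, PECAM1 and VWF were higher in both, KDR only without and PTPRC only with GDF11. KDR had 130 counts over all 16 libraries and passed the filter on low counts only through the senescent libraries, so its call is given as a description. The part of these markers in the results below was not tested.

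The first comparison addressed what MmC did to the pathway, first without and then with GDF11. BMP2 and BMP6 rose in both comparisons, by 71.9-fold and 17.9-fold without GDF11. ID1 fell to 0.259 of its young level. BMPR1A fell slightly without GDF11, and BMP4, BMPR2, ID2 and ID3 did not pass the test. In bulk RNA, fewer cells that express a gene and less RNA per cell cannot be told apart.

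BMP2 (ENSG00000125845.7, chromosome 20, 6767686 to 6780246, plus strand, hg38) encodes a ligand that drives bone formation. In MmC-/GDF11- its level was 0.416, 0.197, 0.0917 and 0.231 CPM in replicates 1 to 4, and in MmC-/GDF11+ it was 0.264, 0.148, 0.166 and 0.190 CPM. These levels rest on 82 and 60 counts per group. In MmC+/GDF11- it was 2.53, 26.3, 20.7 and 17.9 CPM, and in MmC+/GDF11+ it was 2.58, 19.3, 23.7 and 19.7 CPM. BMP2 was close to undetected in all 8 young libraries, and every senescent library was above every young library. Replicate 1 was the highest of its group in both young groups and the lowest in both senescent groups. The log2 fold change was 6.17 (SE 0.793) without GDF11 and 6.41 (SE 0.815) with GDF11 (edgeR quasi-likelihood test, Benjamini-Hochberg adjusted p = 2.36e-05 and 2.09e-05). As a fold, 71.9 had a 95% interval of 22.3 to 232 and 84.8, with GDF11, one of 25.5 to 282. Between libraries of the same replicate number, the MmC ratio without GDF11 was 6.09, 134, 226 and 77.2.

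BMP6 (ENSG00000153162.9, chromosome 6, 7726099 to 7881728, plus strand) encodes a ligand that also controls hepcidin in iron balance. In MmC-/GDF11- its level was 5.09, 1.69, 2.03 and 1.76 CPM, and in MmC-/GDF11+ it was 4.95, 2.16, 1.87 and 1.70 CPM. In MmC+/GDF11- it was 9.48, 69.9, 59.7 and 49.3 CPM, and in MmC+/GDF11+ it was 9.46, 57.2, 71.9 and 42.0 CPM. The young and senescent libraries did not overlap, and replicate 1 again lay closest to the other treatment on each side. The log2 fold change was 4.16 (SE 0.694, adjusted p = 0.000217 by edgeR) without GDF11 and 4.09 (SE 0.692, adjusted p = 0.000244) with it. The same-number ratio was 1.86 in replicate 1 and 27.9 to 41.4 in replicates 2 to 4 without GDF11, and 1.91 against 24.7 to 38.5 with GDF11. Of the exon bases of BMP6, 5.6% overlap TXNDC5 on the opposite strand, and whether the counting used strand is not given in the sources used here.

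BMP4 (ENSG00000125378.16, chromosome 14, 53949736 to 53958761, minus strand) encodes a ligand close in sequence to BMP2. In MmC-/GDF11- its level was 16.6, 9.64, 9.57 and 9.97 CPM, and in MmC-/GDF11+ it was 13.7, 10.1, 10.1 and 9.82 CPM. In MmC+/GDF11- it was 15.0, 5.40, 5.51 and 6.22 CPM, and in MmC+/GDF11+ it was 14.8, 5.79, 5.19 and 6.29 CPM. Replicates 2 to 4 of the senescent groups lay below every young library, while replicate 1 of both lay among or above the young libraries. Over all 4 replicates the log2 fold change was -0.51 (SE 0.368, adjusted p = 0.277) without GDF11 and -0.45 (SE 0.368, adjusted p = 0.334) with GDF11 in edgeR, with folds of 0.703 (95% interval 0.408 to 1.21) and 0.731 (0.425 to 1.26). Without replicate 1 of each group it was -0.77 (adjusted p = 2.69e-05) and -0.80 (adjusted p = 1.88e-05). In this fit, which did not pair libraries of the same replicate number, the call of BMP4 thus depended on that replicate. With the replicate number as a block in edgeR, BMP4 was called with replicate 1 kept (adjusted p = 0.0028 and 0.00355). A lncRNA on the opposite strand overlaps 16.3% of the exon bases of BMP4.

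**Figure D1:**
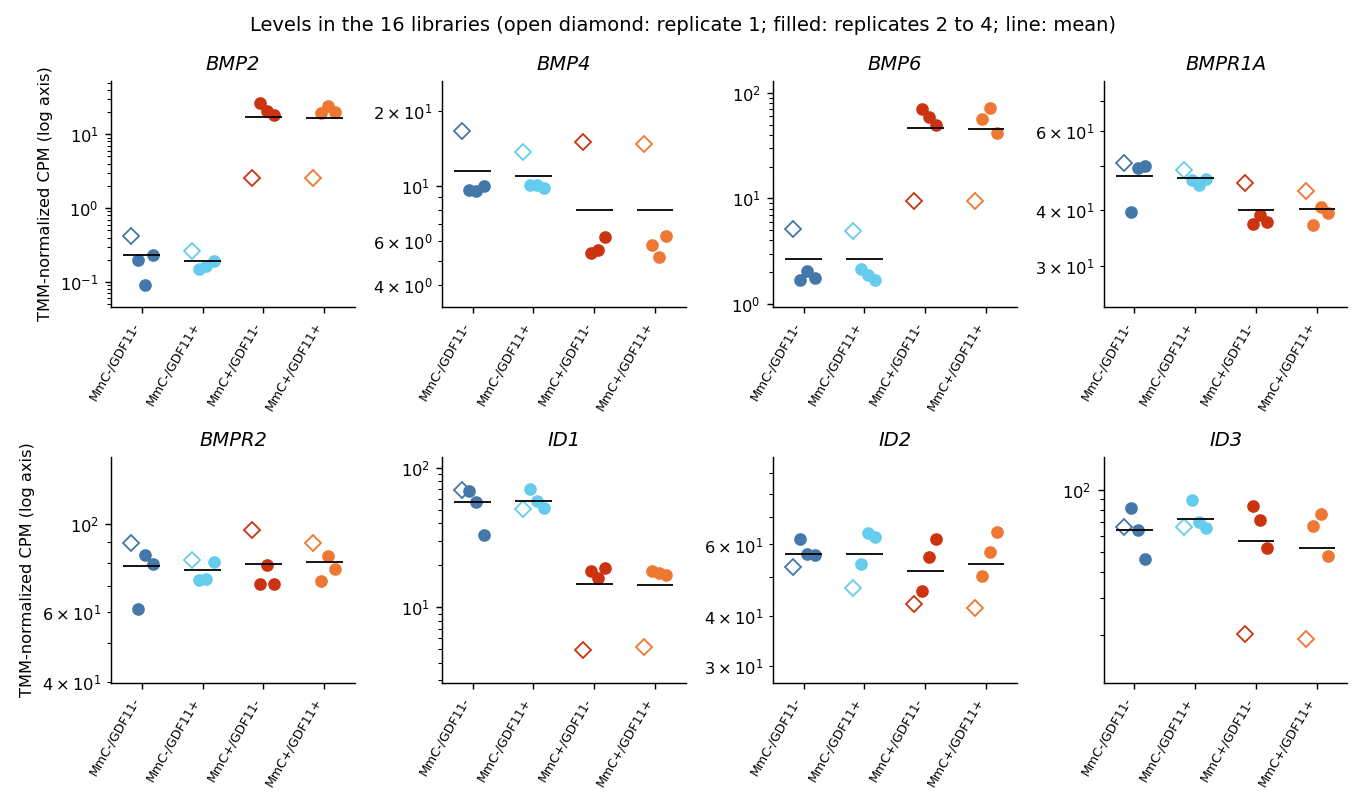
Level of each of the 8 tested genes in the 16 libraries, as TMM-normalized CPM on a log axis that differs between panels. Points are libraries, open diamonds mark replicate 1 and lines are group means. BMP2 was between 0.0917 and 0.416 CPM in young libraries and between 2.53 and 26.3 CPM in senescent libraries, and replicate 1 of the MmC+ groups stands apart for BMP2, BMP4, BMP6, ID1 and ID3.

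BMPR1A (ENSG00000107779.14, chromosome 10, 86756596 to 86932825, plus strand) encodes a type I receptor for BMP2 and BMP4. Its level was 50.8, 39.6, 49.7 and 50.1 CPM in MmC-/GDF11- and 45.9, 37.2, 39 and 37.7 CPM in MmC+/GDF11-. With GDF11 it was 49, 46.6, 45.5 and 46.9 CPM in young cells and 44.1, 37.1, 40.6 and 39.4 CPM in senescent cells. Without GDF11 the groups overlapped through replicate 2 of the young cells, and with GDF11 they did not overlap. The log2 fold change was -0.25 (SE 0.0939, edgeR adjusted p = 0.0388) without GDF11 and -0.22 (SE 0.0939, adjusted p = 0.0640) with GDF11, and the same-number ratio was under 1 in 4 of 4 replicates of each comparison. The call without GDF11 was lost in 14 of 20 alternative settings, and its adjusted p was 0.0563 with RLE scaling, for example. For 35.4% of the 31-base words in the exons of BMPR1A a copy stands elsewhere in the primary hg38 sequence. Its counts may therefore depend on how reads with several places were treated, which was not tested.

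BMPR2 (ENSG00000204217.15, chromosome 2, 202376327 to 202567751, plus strand) encodes the type II receptor of the pathway. Its level was 89.8, 61.1, 83.9 and 79.3 CPM in MmC-/GDF11- and 96.6, 70.8, 79.1 and 70.7 CPM in MmC+/GDF11-. With GDF11 it was 81.5, 72.4, 72.6 and 80.2 CPM in young cells and 89.6, 71.9, 83.3 and 77 CPM in senescent cells. All 4 groups overlapped. The MmC fold was 1.01 (95% interval 0.843 to 1.21) without GDF11 and 1.05 (0.876 to 1.26) with it, with edgeR adjusted p = 0.937 and 0.671. A change within these intervals could not be seen at this spread between replicates in this fit, which did not pair libraries of the same replicate number.

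ID1 (ENSG00000125968.9, chromosome 20, 31605283 to 31606515, plus strand) encodes an inhibitor of E proteins that is made in proliferating cells. Its level was 68.7, 68.5, 56.4 and 32.9 CPM in MmC-/GDF11- and 50.5, 69.9, 57.6 and 51.4 CPM in MmC-/GDF11+. It was 4.95, 18.3, 16.3 and 19.1 CPM in MmC+/GDF11- and 5.18, 18.2, 17.7 and 17.1 CPM in MmC+/GDF11+. Every senescent library was below every young library, and replicate 1 was the lowest of both senescent groups. The log2 fold change was -1.95 (SE 0.409, edgeR adjusted p = 0.00133) without GDF11 and -1.97 (SE 0.409, adjusted p = 0.00118) with it, which are folds of 0.259 (95% interval 0.141 to 0.474) and 0.254 (0.139 to 0.466). Same-number ratios were 0.0721, 0.267, 0.289 and 0.580 without GDF11 and 0.103, 0.261, 0.307 and 0.333 with it. The sequence in front of ID1 is the first of those printed above. ID1 shares no 31-base exon word with the rest of the genome.

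ID3 (ENSG00000117318.9, chromosome 1, 23557926 to 23559501, minus strand) encodes a second inhibitor of the same kind. Its level was 65.6, 81.3, 63.6 and 46.0 CPM in MmC-/GDF11- and 20.1, 83.3, 71.1 and 52.4 CPM in MmC+/GDF11-. With GDF11 it was 65.7, 88.8, 69.4 and 65.2 CPM in young cells and 19, 66.5, 76.0 and 47.7 CPM in senescent cells. Replicate 1 was the lowest senescent library in both cases, at 0.307 and 0.289 of its same-numbered young library, and replicates 2 to 4 had ratios of 1.02 to 1.14 without GDF11 and 0.731 to 1.10 with it. The log2 fold change was -0.18 (SE 0.393, edgeR adjusted p = 0.742) and -0.47 (SE 0.394, adjusted p = 0.353), and without replicate 1 it was 0.12 (adjusted p = 0.699) and -0.23 (adjusted p = 0.424).

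ID2 (ENSG00000115738.10, chromosome 2, 8678845 to 8684461, plus strand) encodes another inhibitor of E proteins. Its level was 52.7, 61.8, 56.9 and 56.5 CPM in MmC-/GDF11- and 42.7, 46.0, 56.0 and 61.9 CPM in MmC+/GDF11-. With GDF11 it was 46.8, 53.8, 64.0 and 62.6 CPM in young cells and 41.9, 50.2, 57.6 and 64.5 CPM in senescent cells. The groups overlapped, and replicate 1 was the lowest library of every group. The MmC fold was 0.906 (95% interval 0.736 to 1.12) without GDF11 and 0.942 (0.765 to 1.16) with it, with edgeR adjusted p = 0.438 and 0.646. Copies elsewhere in primary hg38 cover 23.2% of its 31-base exon words, and ID2-AS1 on the opposite strand overlaps 6.55% of its exon bases.

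ID4 (ENSG00000172201.12, chromosome 6, 19837370 to 19842197, plus strand), the fourth ID gene, had 18 counts in all 16 libraries and was not tested. Young cells had 11 counts without and 5 with GDF11, and senescent cells had 0 without and 2 with it. The 0 counts among 365950289 allow a level of up to 0.0082 CPM, and this limit covers counting error only. Of the 11 counts, 8 lay in replicate 1, and the other libraries had 0 to 3 counts each, so no direction was read for ID4.

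Of the 8 tested genes, 4 passed the test for MmC without GDF11, 2 higher (BMP2 and BMP6) and 2 lower (BMPR1A and ID1). Among all 19103 tested genes 45.3% were called, 22.9% higher and 22.4% lower, so the share of the set was close to that of all genes. With GDF11, 3 of 8 were called, the same genes except BMPR1A, where 46.7% of all genes were called, 23.4% higher and 23.3% lower. The young and senescent libraries did not overlap for 3 of 8 genes without GDF11 (37.3% of all genes) and for 4 of 8 with GDF11 (41.5% of all genes). The median log2 fold change of the 8 genes was -0.16 and -0.15, and that of all genes was -0.011 and -0.010. These 2 comparisons share no library, but they are not independent. Both come from 1 fit, and same-numbered senescent libraries with and without GDF11 deviated together (lowest correlation 0.448).

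Replicate 1 stood apart in the MmC response of the set. Without it, 5 of 8 genes were called in each MmC comparison, 2 higher and 3 lower (BMP4, BMPR1A and ID1), where 51.7% and 52.6% of 19338 tested genes were called. BMP2 then had a log2 fold change of 6.90 and BMP6 one of 5.03 without GDF11, and ID1 one of -1.55. With the replicate number as a block, also 5 of 8 genes were called in each comparison, where 57.9% and 59% of all genes were called. BMP4 then had a log2 fold change of -0.60 (edgeR adjusted p = 0.0028) without GDF11 and -0.58 (adjusted p = 0.00355) with it. What made replicate 1 differ was not tested.

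**Figure D2:**
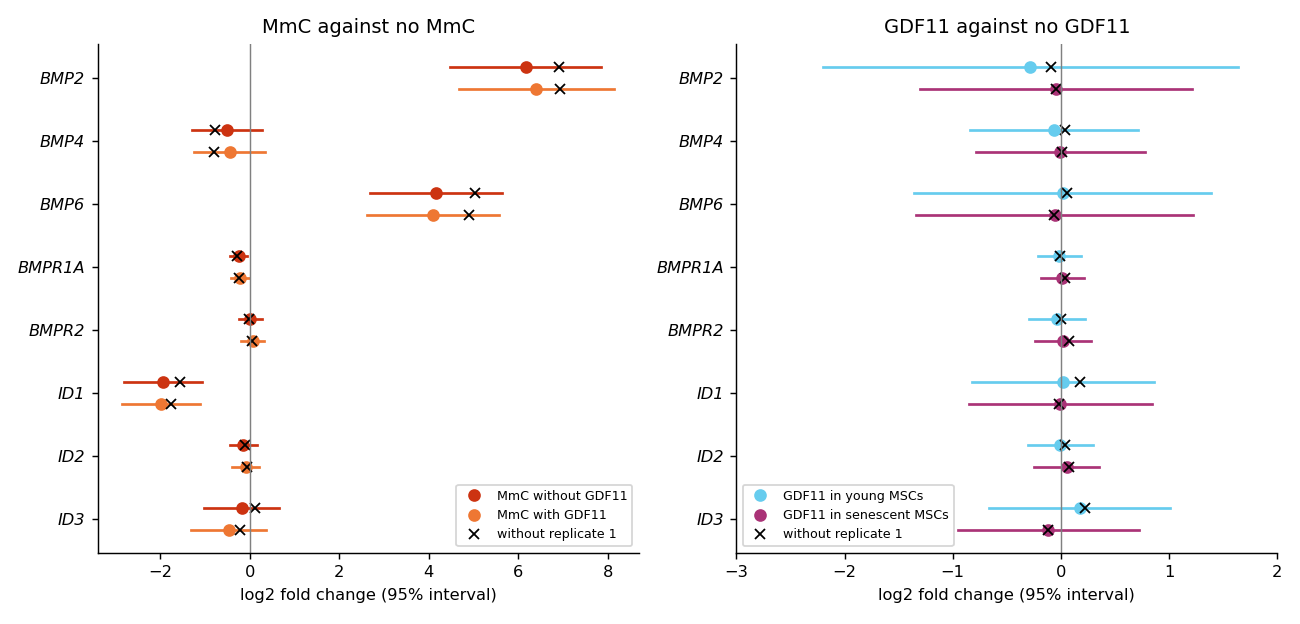
Log2 fold changes of the 8 tested genes with 95% intervals from edgeR, for MmC against no MmC on the left and for GDF11 against no GDF11 on the right, on different horizontal scales. Crosses are the estimates without replicate 1. The intervals of BMP2, BMP6, BMPR1A and ID1 for MmC do not reach 0, and every GDF11 interval includes 0.

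The second question was what GDF11 did to the same genes. None of the 8 genes was called in young or in senescent MSCs. For all of them the adjusted p was 1, and none had an unadjusted p under 0.05. Among all 19103 genes 0% were called by edgeR in young and 0% in senescent MSCs, and the share with an unadjusted p under 0.05 was 1.18% and 0.503%. Both shares are below the 0.05 that a calibrated test gives where nothing changes, so the fit appeared conservative here. The lack of calls does not show that GDF11 had no effect. With DESeq2 the number of called genes was 1 in young and 0 in senescent MSCs, with limma-voom it was 0 in both, and neither called any of the 8 genes. For no gene of the set did the libraries with and without GDF11 separate, which 0.89% of all genes did in young and 0.503% did in senescent MSCs.

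The estimate farthest from 0 in young MSCs was that of BMP2, with a log2 fold change of -0.28 (95% interval -2.20 to 1.64). Without replicate 1 it was -0.09 (-0.81 to 0.64). ID3 had 0.17 (-0.66 to 1.01) in young and -0.12 (-0.95 to 0.72) in senescent MSCs. The receptors had the narrowest intervals. For BMPR1A the GDF11 fold was 0.988 (0.861 to 1.13) in young and 1.01 (0.879 to 1.16) in senescent MSCs, and for BMPR2 it was 0.976 (0.815 to 1.17) and 1.01 (0.847 to 1.21). ID1 had a fold of 1.01 (0.566 to 1.81) and 0.995 (0.553 to 1.79). A GDF11 change of up to about the bounds of these intervals could not be seen in this fit, which had no block for the replicate number. With that block the log2 interval in senescent MSCs was -0.129 to 0.159 for BMPR1A (-0.186 to 0.212 without it). For ID1 it was -0.914 to 0.906 (-0.854 to 0.840 without it).

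The interaction tested whether GDF11 acted differently in senescent and in young MSCs. No gene of the set was called (adjusted p = 0.99994 for each of the 8). Of all genes 0% were called by edgeR, by DESeq2 and by limma-voom, and 0.9% had an unadjusted p under 0.05 in edgeR. This share is again below 0.05. The values farthest from 0 were -0.29 for ID3 (95% interval -1.47 to 0.90) and 0.24 for BMP2 (-2.05 to 2.53) on the log2 scale. For BMP2, BMP6 and ID1 the difference between the MmC fold changes with and without GDF11 was within this error.

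To compare levels between genes, CPM was divided by exon length. In MmC-/GDF11- the order was ID1 (45.9 CPM per kb), ID3 (42.9), ID2 (25.8), BMPR2 (6.28), BMPR1A (4.72), BMP4 (3.69), BMP6 (0.699), BMP2 (0.066) and ID4 (0.00907). The libraries of ID1 and ID3 overlapped, as did those of BMPR2 and BMPR1A, of BMPR1A and BMP4, and of BMP2 and ID4. In MmC-/GDF11+ the order differed only in ID3 (48.3) being above ID1 (46.5), and this pair alone overlapped. In young cells ID1, ID2 and ID3 thus stood above the receptors, ID4 was last, and BMP4 was the ligand with the highest level.

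In MmC+/GDF11- the order was ID3 (37.9 CPM per kb), ID2 (23.3), BMP6 (12.4), ID1 (11.9), BMPR2 (6.34), BMP2 (4.75), BMPR1A (3.97), BMP4 (2.59) and ID4 (0). All neighbours overlapped except ID2 with BMP6 and BMP4 with ID4. The order in MmC+/GDF11+ was the same, from 35 for ID3 and 11.9 for BMP6 down to 2.59 for BMP4 and 0.0011 for ID4, and there only BMP4 and ID4 did not overlap. BMP6 moved from the seventh to the third place and was the ligand with the highest mean level in senescent cells. Its range in MmC+/GDF11-, 2.51 to 18.5 CPM per kb, crossed that of BMP4, 1.74 to 4.84 CPM per kb, through replicate 1.

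**Figure D3:**
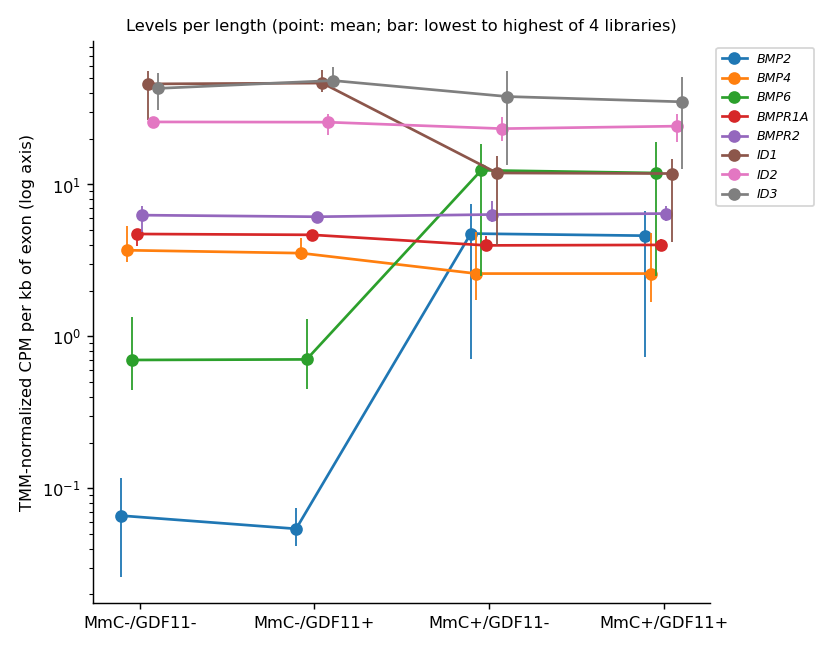
Mean TMM-normalized CPM per kb of exon of the 8 tested genes in the 4 groups, on a log axis, with bars from the lowest to the highest of 4 libraries. BMP6 goes from 0.699 to 12.4 and BMP2 from 0.066 to 4.75 CPM per kb between MmC-/GDF11- and MmC+/GDF11-, while ID1 goes from 45.9 to 11.9.

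The other BMP ligands gave 5 tested genes of 11, with 2 called higher and 0 lower without GDF11, and 3 higher and 0 lower with it. GDF6, a ligand of joint formation, rose from 6.00 ± 1.49 to 15.9 ± 1.46 CPM (SD, n = 4), at a log2 fold change of 1.41 (SE 0.172). BMP10, a ligand known from the heart, is 1 of the called genes in both comparisons, but it had only 2 counts in MmC-/GDF11- and 42 in MmC+/GDF11-. It passed the filter on low counts only through the senescent libraries, so its call is given as a description. BMP8A was called with GDF11, at 1.35 (SE 0.336), and had 0.67 (SE 0.311) without it (interaction 0.68, edgeR adjusted p = 0.99994). It had 4 to 8 counts per library in MmC-/GDF11+ and 17 to 30 in MmC+/GDF11+. BMP8A too passed the filter only through the senescent libraries, so its call is given as a description. GDF5 had 8.47 ± 2.10 and 4.91 ± 3.81 CPM (SD, n = 4) and was not called, and without replicate 1 its log2 fold change was -1.63 (SE 0.231, edgeR adjusted p = 4.78e-05). BMP7 did not pass the filter over 16 libraries, with 1 count in MmC-/GDF11- and 26 in MmC+/GDF11-. The median log2 fold change of this list was 0.67 and 1.35.

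Of 9 other receptors and co-receptors 8 were tested, with 2 higher and 2 lower without GDF11 and 2 higher and 1 lower with it. ACVR1, a type I receptor for BMP6, rose from 60.7 ± 3.17 to 76.8 ± 3.6 CPM (SD, n = 4), at a log2 fold change of 0.34 (SE 0.0806). ACVR2B, a type II receptor shared with activin and GDF11, rose without GDF11 by 0.63 (SE 0.237) and had 0.57 (SE 0.238) with it. RGMA, a BMP co-receptor, fell from 8.33 ± 1.89 to 1.91 ± 0.856 CPM (SD, n = 4), at -2.12 (SE 0.292). ACVR2A was lower without GDF11 at -0.26 (SE 0.104) and had -0.06 (SE 0.104) with it. BMPR1B had 0.91 (SE 0.383, edgeR adjusted p = 0.0642) without and 0.97 (SE 0.384, adjusted p = 0.0498) with GDF11. The interaction was not called for these 3 receptors. The list median was 0.09 and 0.11.

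The antagonists and modulators, which bind ligands outside the cell or dampen receptors, had 14 tested genes of 18. Without GDF11 4 were higher and 1 lower, and with GDF11 5 were higher and 1 lower. FST, which binds activins, GDF11 and some BMPs, rose from 83.2 ± 16.4 to 255 ± 105 CPM (SD, n = 4). BMPER, which binds BMPs, rose from 37.5 ± 6.74 to 96.0 ± 13.2 CPM, and NOG, the BMP antagonist noggin, rose from 1.93 ± 0.119 to 5.74 ± 4.45 CPM. The log2 fold changes of these 3 were 1.61 (SE 0.329), 1.35 (SE 0.143) and 1.57 (SE 0.485). Replicate 1 of MmC+/GDF11- had 12.3 CPM of NOG and the other 3 had 2.74 to 4.8 CPM, and without replicate 1 the NOG value was 0.90 (SE 0.234, edgeR adjusted p = 0.00516). CHRDL2, also among the called genes, had 7 counts in MmC-/GDF11- and 81 in MmC+/GDF11- and passed the filter only through the senescent libraries. CHRDL1, a chordin-like antagonist, fell from 508 ± 43.9 to 303 ± 55.1 CPM, at -0.75 (SE 0.152). GREM1 had 0.63 (SE 0.225, edgeR adjusted p = 0.0304) with and 0.55 (SE 0.224, adjusted p = 0.0574) without GDF11, and its interaction was 0.09 (adjusted p = 0.99994). The list median was 0.29 and 0.27.

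All 8 SMADs and regulators were tested, with 2 higher and 3 lower without GDF11 and 2 higher and 4 lower with it. SMAD6, an inhibitory SMAD that BMP signals induce, fell from 29.4 ± 3.80 to 7.45 ± 1.02 CPM (SD, n = 4), at -1.98 (SE 0.192). SMAD7, the inhibitory SMAD shared with TGF-beta, rose from 12.7 ± 0.475 to 26.9 ± 10.2 CPM, at 1.08 (SE 0.265). SMAD1 fell by 0.84 (SE 0.146) and SMAD4 by 0.53 (SE 0.0653) on the log2 scale. SMURF1, a ubiquitin ligase of SMAD1 and SMAD5, rose at 0.29 (SE 0.0864), and SMAD9 had -0.72 (SE 0.274, edgeR adjusted p = 0.0410) with and -0.68 (SE 0.273, adjusted p = 0.0515) without GDF11. SMAD5 and SMURF2 were not called in either comparison. The list median was -0.30 in both comparisons.

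Of 15 other BMP target genes 13 were tested, with 2 higher and 4 lower without GDF11 and 3 higher and 5 lower with it. This list shares SMAD6, SMAD7, SMAD9, BAMBI, NOG and GREM1 with the lists above. ATOH8, a target of SMAD1 and SMAD5 signals, fell from 38.2 ± 8.96 to 16.5 ± 2.85 CPM (SD, n = 4), at -1.21 (SE 0.189). RUNX2, a regulator of bone formation, fell from 15.9 ± 2.22 to 8.08 ± 1.25 CPM, at -0.98 (SE 0.157). MSX1, a homeobox gene, fell from 18.8 ± 2.27 to 11.4 ± 1.47 CPM, at -0.72 (SE 0.130). HEY1 (0.58, SE 0.397), HES1 (0.51, SE 0.426) and TBX3 (0.61, SE 0.337) were not called without GDF11. The list median was 0.23 and -0.05, so targets were found in both directions.

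**Figure D4:**
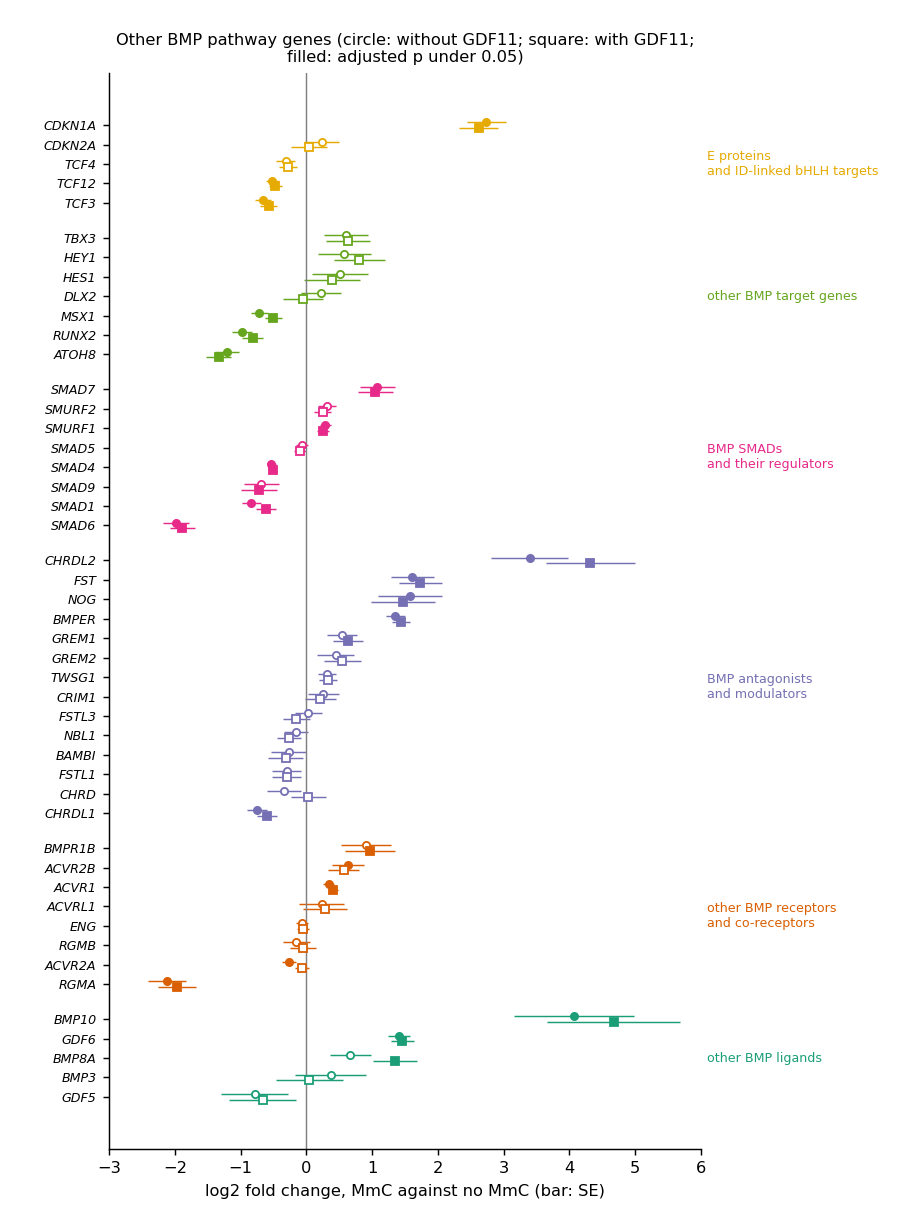
Log2 fold change after MmC, with SE, of the tested genes of the 6 other lists, each gene shown once. Circles are without and squares with GDF11, and filled marks had an adjusted p under 0.05. RGMA and SMAD6 lie at -2.12 and -1.98 without GDF11, and GDF6, FST and CDKN1A lie at 1.41, 1.61 and 2.74.

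Of the 5 E proteins and genes linked to ID proteins, 1 was higher and 2 were lower in both MmC comparisons. TCF3 and TCF12, 2 of the E proteins that ID proteins bind, fell from 100.0 ± 14.2 to 63.3 ± 6.96 CPM and from 103 ± 12.0 to 71.6 ± 3.93 CPM (SD, n = 4), at -0.66 (SE 0.123) and -0.52 (SE 0.101). CDKN1A, the cell cycle inhibitor p21 and a p53 target, rose from 226 ± 70.6 to 1507 ± 395 CPM, at 2.74 (SE 0.296). TCF4, another E protein, and CDKN2A were not called in the fit without a block. The list median was -0.32 and -0.28. All calls of these lists are at an edgeR adjusted p under 0.05 over all genes, and beside 45.3% and 46.7% of genes called none of the lists is shown to stand apart.

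Without replicate 1 more genes were called in each of the 6 lists for MmC without GDF11, as they were among all genes (51.7% against 45.3%). The counts were 3 higher and 1 lower of 5 ligands, 3 and 2 of 8 receptors, 6 and 2 of 14 antagonists, 2 and 4 of 8 SMADs and regulators, 5 and 5 of 13 targets and 1 and 3 of 5 E proteins and linked genes. The 5 ligands then held BMP7, which was called, in place of BMP3. Like BMP10, BMP7 passed the filter on low counts only through the senescent libraries. The calls of both, which are among the higher ligands, are given as a description. HES1, HEY1 and TBX3 then had log2 fold changes of 1.09 (SE 0.265), 0.93 (SE 0.238) and 0.74 (SE 0.152), and the 3 were called. ACVR2A was then no longer called (edgeR adjusted p = 0.103). With the replicate block, where 57.9% of all genes were called, the counts were 2 higher and 0 lower ligands, 3 and 2 receptors, 6 and 3 antagonists, 3 and 4 SMADs and regulators, 4 and 6 targets and 1 and 3 E proteins and linked genes. TCF4 (-0.32, edgeR adjusted p = 0.00159), SMURF2 (0.30, adjusted p = 0.0244) and TBX3 (0.53, adjusted p = 0.0316) were among these calls. GDF11 changed none of the tested genes of these lists past the threshold in young or in senescent MSCs, in edgeR.

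Genes with the pattern most like that of each member were found by the root mean square (RMS) difference of mean-centred log2 CPM over the 16 libraries, among 10964 protein-coding candidates. For BMP2 they were LIF (RMS 0.401) and IL33 (0.485), for BMP6 NR4A3 (0.473) and C11orf96 (0.528), and for BMP4 PRSS23 (0.132) and RIMS1 (0.136). ID1 was closest to PIMREG (0.371) and UBE2C (0.394), ID3 to MAGEC2 (0.275) and SHISAL1 (0.336), and ID2 to SKAP2 (0.0886) and PTPN2 (0.0958). BMPR1A was closest to ZMYM4 (0.0503) and EXOC1 (0.062), and BMPR2 to FBXL4 (0.0576) and REST (0.0606). The members' own SD over the libraries was 3.08 for BMP2, 2.17 for BMP6, 1.21 for ID1, 0.635 for ID3, 0.555 for BMP4, 0.198 for ID2, 0.16 for BMPR1A and 0.159 for BMPR2, and the last 3 have the smallest RMS values. Among the members themselves, BMP2 and BMP6 differed by an RMS of 1.03, ID1 and ID3 by 0.836, and ID3 and ID2 by 0.557. The libraries share depth and replicate structure, and no test was made of these likenesses.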

How the data were processed

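Poly(A)-enriched RNA of ASC52telo was sequenced in 16 libraries, and groups and replicate numbers came from the sample labels. The authors aligned reads to hg38 with HISAT2 2.2.1, counted them with featureCounts 2.0.1 against GENCODE V38 and deposited raw counts per gene. The strand setting, the counting of pairs and the treatment of reads with several places are not given in the sources used here.

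Symbols, positions and exon lengths came from GENCODE v44 on hg38 (142 identifiers without a match), and upstream sequences from RefSeq, where 8 of the 9 genes had an entry. The counts were tested with edgeR 4.0.16 (R 4.3.3): filterByExpr (minimum count 10, minimum total 15), TMM, a robust quasi-likelihood fit of all 16 libraries with 1 mean per group, and Benjamini-Hochberg adjustment over 19103 genes at 0.05. CPM, SEs and 95% intervals were computed from this fit or its scaling. The edgeR steps were tested on simulated counts, for MmC without GDF11 only. The simulated counts held no shared differences between replicate numbers, so this test does not cover that feature of the data. The other steps were not tested in this way. Total counts of 71275337 to 144204979 set the counting precision.

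The 9 genes and all lists were chosen with earlier results of these data known. Named genes are the 9, members of the lists, and per tested gene the 2 protein-coding genes of most like pattern with a mean log2 CPM of at least 1 (prior count 2). One marker gene is not reported here. BMP7 and the list genes given with values were chosen after their values were seen.

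Same-numbered libraries were checked for deviating together. For MmC without GDF11 the lowest correlation of a pair was 0.113, and in senescent MSCs it was 0.448 for GDF11. These comparisons were labelled as paired. Those with lowest values of 0.0293 (MmC with GDF11) and 0.0982 (GDF11, young MSCs) were not. The label did not enter the main fit, which had no block for the replicate number in any comparison. Alternatives were upper-quartile and RLE scaling, no filter, only the libraries compared, the replicate number as a block, limma-voom (limma 3.58.1), DESeq2 1.42.0, glmTreat against a log2 fold change of 1, and libraries left out in turn.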

Additional observations from a re-analysis of the deposited data

Results flagged for a closer look

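Within groups of 4 libraries, 8 of 36 groups of the 9 genes had a library far from the other 3 by Dixon's criterion. The 36 groups come from the same 16 libraries and are not independent, so this count cannot be set against chance. For BMP4 this was replicate 1 of every group. It had 16.6 CPM in MmC-/GDF11- (others 9.57 to 9.97), 13.7 CPM in MmC-/GDF11+ (9.82 to 10.1), 15 CPM in MmC+/GDF11- (5.4 to 6.22) and 14.8 CPM in MmC+/GDF11+ (5.19 to 6.29). For BMP6 it was replicate 1 of both young groups, at 5.09 CPM in MmC-/GDF11- (others 1.69 to 2.03) and 4.95 CPM in MmC-/GDF11+ (1.7 to 2.16). For ID1 it was replicate 1 of MmC+/GDF11+, at 5.18 CPM (others 17.1 to 18.2). The remaining library was replicate 2 of MmC-/GDF11- for BMPR1A, at 39.6 CPM (others 49.7 to 50.8). A cause was not tested.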

How the results depend on the processing

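BMP2 and BMP6 kept their call and direction in all 20 alternatives of each MmC comparison, with log2 fold changes of 5.79 to 6.90 and 3.74 to 5.03 without GDF11. ID1 kept its call in 19 of 20 in each (-2.28 to -1.55 without GDF11), and lost it under glmTreat, which tests against a log2 fold change of 1 (adjusted p = 0.0557 and 0.0520). BMPR1A without GDF11 lost its call in 14 of 20 (-0.32 to -0.18). Members called were 2 under glmTreat for MmC without GDF11 and 3 to 5 with libraries left out. With GDF11 they were 5 under the replicate block and 3 to 5 with libraries left out, the 5 arising without replicate 1 of MmC+/GDF11+ or of all groups. Genes called for MmC were 1294 and 1235 under glmTreat, and 5490 to 10004 and 5505 to 10164 with libraries left out, the lowest without replicate 3 of all groups. The cause was not tested.

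The replicate block raised the genes called for MmC to 11066 and 11267, added BMP4 in both comparisons and BMPR1A with GDF11 (adjusted p = 0.0101), and changed no other call of a member. For GDF11 in young MSCs DESeq2 called 1 gene, and leaving out libraries 0 to 1 (1 without replicate 2 of MmC-/GDF11+ or of all groups). No called value changed sign in any alternative. Uncalled values changed sign in 6 of 160 and 1 of 160 cases for MmC, in 27 of 168 and 39 of 168 for GDF11 and in 36 of 216 for the interaction. CPM without TMM was not carried through as an alternative for levels.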
